A study of Mus musculus with 6 samples.

Results

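The neurofilament and spiral ganglion neuron genes described here are *Nefl*, *Nefm*, *Nefh*, *Prph*, *Tubb3*, *Snap25*, *Syt1*, *Stmn2*, *Uchl1* and *Gata3*, taken by gene symbol from a mouse expression array. Of these 10 genes, 9 had a probe under their symbol, 1 probe each, among the 18138 gene symbols and 25697 probes of the array. No probe carried the symbol *Nefh*, so the heavy neurofilament chain was not analysed here. RNA came from cochlear tissue of 3 wild type (WT) and 3 *Cmah*-null mice of the C57BL/6 strain (C57BL/6J in the study's methods), all 12 months old. The *Cmah*-null mice lack the hydroxylase that makes the sialic acid Neu5Gc, and they were studied as a model of hearing loss with age. Whole cochlear tissue was labelled and hybridized, 1 Illumina MouseRef-8 v2 array per sample, and the sex of the mice was not recorded. The labels do not say how samples within a group were separated, so p values measure the spread between these samples only.

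Spiral ganglion neurons carry sound information from hair cells to the brainstem, and their cell bodies lie in the bony core of the cochlea. Neurofilaments are intermediate filaments built from light (*Nefl*), medium (*Nefm*) and heavy (*Nefh*) chains that fill large myelinated axons and set their calibre. Peripherin (*Prph*) joins the same filaments in peripheral neurons, and in the adult cochlea it marks the small, mostly unmyelinated type II neurons, which contact outer hair cells. The other genes mark neurons of many kinds, except *Gata3*, a transcription factor needed for the inner ear and its neurons that T cells also use. The study used neurofilament staining and RT-qPCR as a readout of neuron loss, and the array was asked here whether transcripts of these genes differed between genotypes.

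Each probe is a 50-base oligonucleotide on beads, and it reads 1 stretch of 1 transcript. Those whose signals carry the results are shown so that each value can be tied to what was hybridized. The complete probes of *Prph*, *Uchl1* and *Tubb3*, written 5′ to 3′ as given for the array, were as follows.
Prph: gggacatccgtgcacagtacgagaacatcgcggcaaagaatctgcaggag
Uchl1: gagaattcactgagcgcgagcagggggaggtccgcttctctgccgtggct
Tubb3: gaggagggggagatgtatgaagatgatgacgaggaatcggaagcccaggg
For *Nefm* and *Gata3*, whose array values set replicates of 1 genotype apart, and for *Nefl* and *Snap25*, which gave no signal above background, the first 30 bases are shown.
Nefm: cccagggtgactaagatcggagtccgttgc
Gata3: ggcctacatgctctgtgaatcagtccctgt
Nefl: tccagatcctatacaaattaagaagtcaat
Snap25: ggtttgtcgaatgcttttgaaagctctgtt
The array annotation places the *Prph* probe at chr15:98887294-98887343 on the plus strand in band 15qF1, and the *Nefm* probe at chr14:68738057-68738106 on the minus strand in band 14qD1, next to that of *Nefl* at chr14:68705578-68705627. The *Gata3* probe is placed at chr2:9779225-9779274 on the minus strand in band 2qA1. The build of these coordinates is not given in the sources used here, and 7 of the 8 member probes with coordinates lay outside their gene's span in RefSeq's GRCm38 annotation, so exon and UTR positions were not assigned. The probes held 30% to 64% G and C, the lowest being that of *Nefl* with 30% and the highest that of *Uchl1* with 64%.

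Before the members, 3 properties of the arrays bear on their values. A probe counts as detected where its detection p, from the negative controls, is under 0.05. Each array had 13873 to 15223 such probes, and the number of arrays limits the precision. *Cmah*-null replicate 3 stood apart, since the SD of its log2 difference from every other array was 0.763 to 0.851, against 0.391 to 0.564 among the others and 0.138 between *Cmah*-null replicates 1 and 2. WT replicate 1 and *Cmah*-null replicates 1 and 2 had a median of 32 to 34 beads per probe and the other arrays 38 or 39, so that both bead sets held both genotypes. The probe of *Cmah* read 7.27, 7.28 and 7.87 log2 signal in WT and 7.95, 7.98 and 7.27 in *Cmah*-null replicates 1, 2 and 3. It was detected on WT replicate 3 and on *Cmah*-null replicates 1 and 2, so it did not separate the genotypes and, for these 2 *Cmah*-null arrays, would go against the label if the probe lay in the deleted part. Where the deletion lies relative to the probe is not given in the sources used here, so groups and directions below are those of libraries as labelled.

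Of the 9 measured genes, 7 were detected on all 6 arrays and 2 on none, beside 48.3% and 34.2% of all probes. A gene is called here when its probe differed by at least 1.5-fold with an unadjusted p under 0.05 in limma, the rule of the study's own threshold, and adjusted p values are Benjamini-Hochberg values over all 25697 probes. Only *Prph* was called, lower in *Cmah*-null mice, which is 1 of 9 probes where 2.71% of all probes were called, 1.41% lower and 1.3% higher. Among probes detected on all 6 arrays, 5.15% were called and 2.64% called lower. At an adjusted p under 0.05 in limma, 0 of the 9 passed, against 0.0% of all probes, while 1 had an unadjusted p under 0.05 against 8.56% of all probes. Among the 7 detected genes the mean was lower in *Cmah*-null mice for 6 and higher for *Gata3*, but *Syt1* and *Stmn2* changed sign when the arrays were scaled to the same median. The median difference was -0.13 log2 over the 9 genes, beside 0.002 over all probes and 0.03 over probes detected on all arrays.

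**Figure D1:**
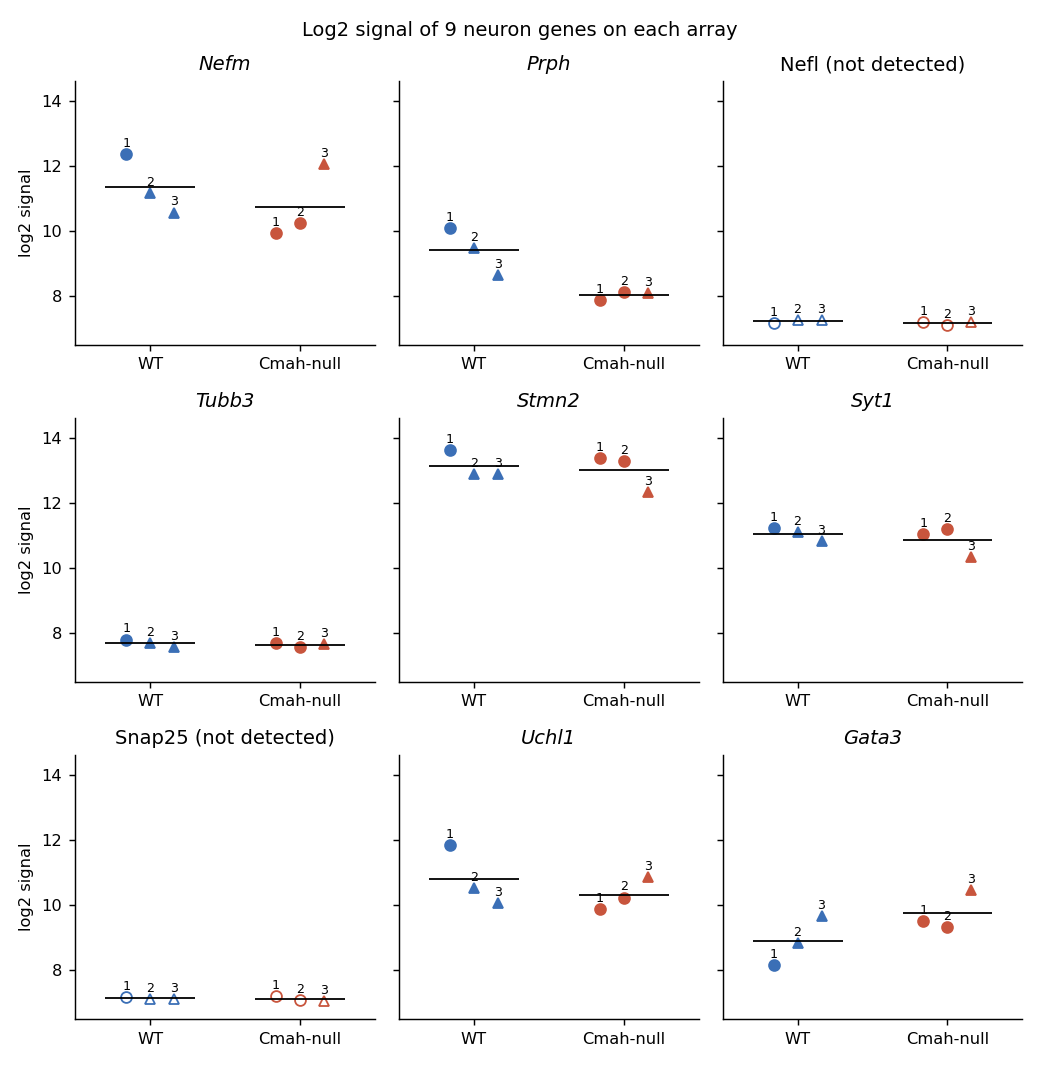
Log2 signal (quantile-normalized) of the 9 measured genes on each array, by genotype. Numbers are replicates, circles mark arrays with fewer beads per probe and triangles those with more, lines are group means, and open symbols are probes not detected on any array. Among the detected genes, only *Prph* shows WT and *Cmah*-null values that do not overlap.

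*Prph* showed the largest difference of the 7 detected genes. Its log2 signal was 10.07, 9.48 and 8.64 in WT replicates 1, 2 and 3 and 7.86, 8.13 and 8.08 in *Cmah*-null replicates 1, 2 and 3. Every *Cmah*-null array lay below every WT array, as was so for 7.33% of all probes. The groups did not overlap, in either direction, for 19.3% of probes detected on all arrays. For *Prph* the WT arrays spread over more than a log2 unit while the *Cmah*-null arrays stayed close together near the lower end of detected signal. The means were 9.40 ± 0.72 (SD, n = 3) and 8.02 ± 0.14 (SD, n = 3), a difference of -1.37 log2 (SE 0.357), or 2.59-fold lower. In limma the unadjusted p was 0.00902 and the adjusted p 0.453, with a 95% interval of -2.26 to -0.49. By size of change it stood at place 49 and by p at place 505 of all 25697 probes. The difference was -2.08 within the arrays with fewer beads and -0.98 within those with more, and it kept its sign and its call when any single array was left out (-1.40 without *Cmah*-null replicate 3 and -1.04 without WT replicate 1). In RNA from whole tissue, fewer neurons and less transcript per neuron cannot be told apart.

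*Nefm*, the medium neurofilament chain, varied among replicates of both genotypes more than it differed between them. It read 12.35, 11.16 and 10.56 in WT and 9.92, 10.23 and 12.05 in *Cmah*-null replicates 1, 2 and 3. WT replicate 1 and *Cmah*-null replicate 3 were the high arrays, and the groups overlapped. The means were 11.35 ± 0.92 and 10.74 ± 1.15 (SD, n = 3 each), a difference of -0.62 log2 (SE 0.707, adjusted p = 0.828 in limma) with a 95% interval of -2.36 to 1.12. That interval spans large differences in both directions. Within the arrays with fewer beads the difference was -2.28 and within those with more it was 1.20, the opposite direction. Leaving out *Cmah*-null replicate 3 made it -1.28, and leaving out WT replicate 1 made it -0.12.

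*Nefl*, the light chain on which the other chains assemble, was not detected. Its probe read 7.16, 7.26 and 7.25 in WT and 7.20, 7.10 and 7.19 in *Cmah*-null replicates, with detection p values of 0.256 to 0.629. These are readings of background, so no fold is given and they do not show whether the light chain transcript differed. A further probe, for the predicted gene LOC100045304, is described by the array annotation as similar to neurofilament protein, and it was noted after its values were seen. It read 12.86, 11.42 and 11.21 in WT and 11.53, 11.69 and 12.55 in *Cmah*-null replicates, a difference of 0.09 log2 (SE 0.508, adjusted p = 0.971 in limma). As for *Nefm*, WT replicate 1 and *Cmah*-null replicate 3 were its highest arrays, and the correlation of both probes over the 6 arrays was 0.84.

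*Uchl1* encodes the ubiquitin hydrolase PGP9.5, an abundant cytoplasmic protein of neurons. Its log2 signal was 11.83, 10.52 and 10.07 in WT and 9.87, 10.23 and 10.86 in *Cmah*-null replicates 1, 2 and 3. WT replicate 1 was again the highest array and the groups overlapped. The difference was -0.49 log2 (SE 0.504, adjusted p = 0.807 in limma) with a 95% interval of -1.73 to 0.76. It was 0.03 without WT replicate 1, -1.78 within the arrays with fewer beads and 0.56 within those with more, so its direction rested on that array.

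*Tubb3* encodes the neuron-specific beta-tubulin widely used to stain spiral ganglion neurons. Its probe was dim but detected, with 7.80, 7.68 and 7.56 in WT and 7.68, 7.56 and 7.65 in *Cmah*-null replicates. The difference of -0.05 log2 (SE 0.0902, adjusted p = 0.902 in limma) had a 95% interval of -0.27 to 0.17. The groups overlapped, with all 6 arrays within a narrow band near background, and no background had been subtracted from the signals.

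*Stmn2* encodes a microtubule regulator of growing and maintained axons, and *Syt1* the calcium sensor of synaptic vesicle release. *Stmn2* read 13.63, 12.89 and 12.89 in WT and 13.38, 13.29 and 12.34 in *Cmah*-null replicates, a difference of -0.13 log2 (SE 0.349, adjusted p = 0.933 in limma, 95% interval -0.995 to 0.727). *Syt1* read 11.22, 11.09 and 10.82 in WT and 11.03, 11.20 and 10.32 in *Cmah*-null replicates, a difference of -0.19 log2 (SE 0.251, adjusted p = 0.851 in limma, 95% interval -0.81 to 0.42). For both genes *Cmah*-null replicate 3 was the lowest array, and without it the differences were 0.20 and 0.07. Within the arrays with fewer and with more beads they were -0.30 and -0.55 for *Stmn2* and -0.10 and -0.64 for *Syt1*. With the bead set as a block, *Stmn2* differed by -0.42 (unadjusted p 0.00544, adjusted p = 0.14 in limma), under 1.5-fold, and *Syt1* by -0.37 (adjusted p = 0.331 in limma). *Snap25*, a SNARE protein of the same release machinery, was not detected on any array, with detection p values of 0.377 to 0.842 and readings from 7.04 to 7.20, and is given no fold.

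*Gata3* was the detected member with a higher mean in *Cmah*-null mice. It read 8.16, 8.83 and 9.67 in WT and 9.49, 9.32 and 10.47 in *Cmah*-null replicates 1, 2 and 3. WT replicate 3 lay above *Cmah*-null replicates 1 and 2, so the groups overlapped, while *Cmah*-null replicate 3 was the highest and WT replicate 1 the lowest array. The means were 8.89 ± 0.75 and 9.76 ± 0.62 (SD, n = 3 each), a difference of 0.88 log2 (SE 0.472) or 1.83-fold, with an unadjusted p of 0.114 and an adjusted p of 0.664 in limma and a 95% interval of -0.29 to 2.04. The difference was 1.25 within the arrays with fewer beads and 1.22 within those with more, and it was 0.52 without *Cmah*-null replicate 3 and 0.51 without WT replicate 1. With the bead set as a block the unadjusted p was 0.00389 (adjusted p = 0.136 in limma), which met the rule for a call.

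**Figure D2:**
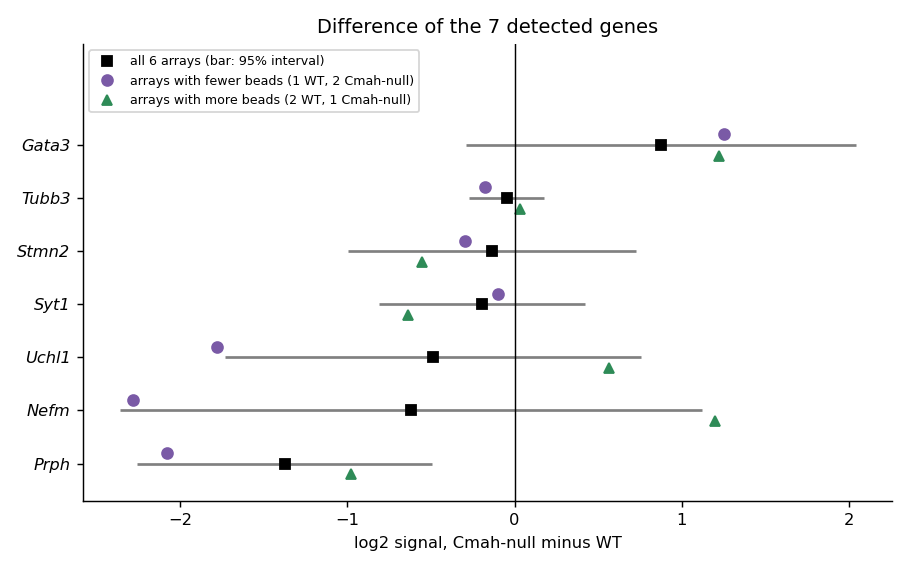
Difference in log2 signal (*Cmah*-null minus WT) of the 7 detected genes. Squares with bars are the difference over all 6 arrays with its 95% interval, and circles and triangles are the differences within the arrays with fewer and with more beads per probe. The interval of *Prph* lies below 0 (-2.26 to -0.49), and those of the other 6 genes include 0.

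The members did not vary together over the 6 arrays, and the following correlations describe the points, which share the group difference and the arrays that stand apart. *Nefm* went with *Uchl1* (r = 0.92, n = 6 arrays) and *Stmn2* with *Syt1* (r = 0.88). Between these pairs the values were low, with -0.21 for *Nefm* and *Stmn2* and 0.06 for *Uchl1* and *Syt1*. *Prph* lay between them, with 0.74 to *Uchl1*, 0.62 to *Nefm* and 0.44 to *Syt1*. *Gata3* ran against the others, from -0.20 with *Nefm* to -0.86 with *Syt1*. *Cmah*-null replicate 3 was the array on which these patterns parted, the highest of its group for *Nefm* and *Uchl1* and the lowest of all 6 for *Stmn2* and *Syt1*.

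Among 9900 other genes detected on all arrays, those most like the mean deviation of *Nefl* and *Nefm* included *Mapkap1*, *Atp5d*, *Dnaja3* and *Ulk2*, with r of 0.994 to 0.997 over the 6 arrays. With *Nefl* at background, this mean followed *Nefm*. Each was highest in WT replicate 1 and next highest in *Cmah*-null replicate 3, and their differences between genotypes were small, from -0.23 log2 for *Atp5d*, a subunit of the mitochondrial ATP synthase, to -0.13 for *Mapkap1*. The same measure for *Prph*, chosen after its values were seen, gave *Tnks*, *Htr3a*, *Slc25a32*, *Pdlim5* and 2010311D03Rik (r of 0.991 to 0.994). Their differences, in that order, were -0.28, -0.96, -0.13, -1.19 and -0.47 log2. These genes were picked for likeness to *Prph*, so their lower values follow from the choice and say nothing further about it. *Htr3a*, a serotonin-gated channel of sensory neurons, read 9.61, 9.32 and 8.69 in WT and 8.23, 8.32 and 8.21 in *Cmah*-null replicates (adjusted p = 0.433 in limma).

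**Figure D3:**
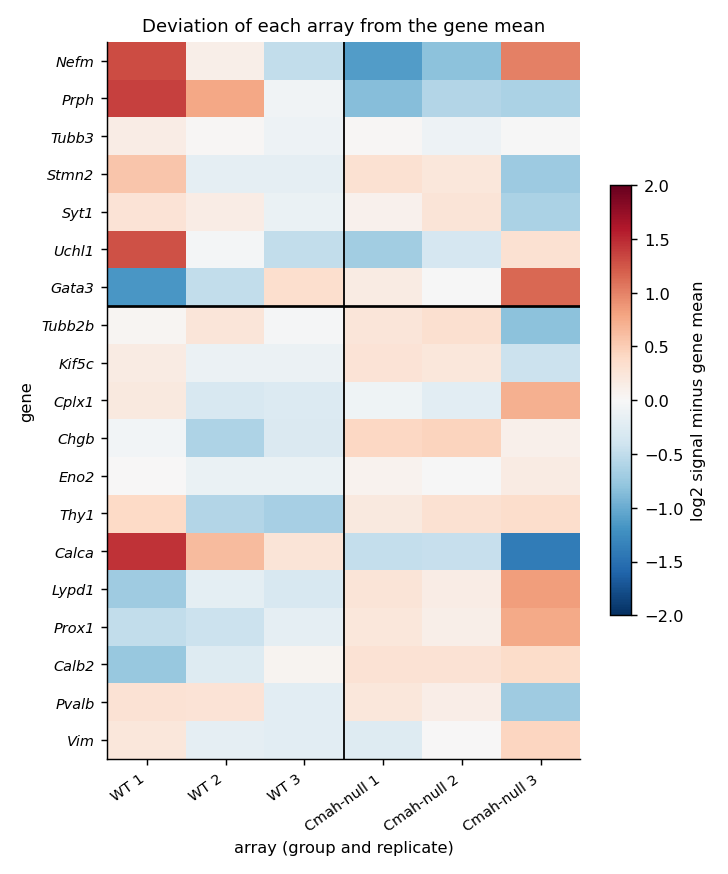
Deviation of the log2 signal of each array from the mean of its gene, for the 7 detected members (above the line) and other named neuron genes and *Vim* (below it). Columns are arrays and the colour scale runs from -2 to 2. *Prph* and *Calca* are higher in each WT column than in any *Cmah*-null column, although WT replicate 3 lies just below the mean of *Prph*, while *Nefm* and *Uchl1* are highest in WT replicate 1.

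Other genes of the same cells were read from 4 lists, with 82 listed genes of the axon cytoskeleton, the synapse, neurons in general and the spiral ganglion. Of these, 76 had a probe and 60 were detected on all 6 arrays. By brightest probe, 6 of 76 (7.89%) were called, 5 higher and 1 lower in *Cmah*-null mice, beside 3.07% of all genes (1.61% higher and 1.46% lower), and 0 passed an adjusted p of 0.05 in limma. The split was 20 higher and 1 lower with median scaling of all 6 arrays, where the median difference of all detected probes was itself 0.30 log2. It was 13 higher and 1 lower without WT replicate 1, and 4 higher and 6 lower without *Cmah*-null replicate 3. The balance of directions thus depended on the scaling and on these 2 arrays. The share of all genes called under these settings is not given here, so these splits are not a result about neuron genes. Groups without overlap were found for 18 of the 76 genes (23.7%), beside 16.4% of all probes. The median difference of the 60 detected genes was 0.13 log2, with 35 higher and 25 lower.

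In the axon and cytoskeleton list, whose members build and transport along the axon, 0 of 16 measured genes were called by limma. Of its 14 detected genes, with a median of 0.14 log2, 5 were lower and 9 higher. Its 2 brightest genes, *Tubb2b*, a beta-tubulin, and *Kif5c*, a kinesin motor, differed by -0.17 (SE 0.316) and 0.05 (SE 0.214). In the synapse list, 1 of 24 was called, higher in *Cmah*-null mice. *Cplx1*, a complexin that clamps the SNARE complex, differed by 0.28 (SE 0.281).

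In the general neuron list, 1 of 18 measured genes was called. *Chgb*, a granin of dense-core vesicles, read 11.68, 11.12 and 11.46 in WT and 12.15, 12.19 and 11.85 in *Cmah*-null replicates, a difference of 0.64 log2 (SE 0.174, adjusted p = 0.463 in limma), with every *Cmah*-null array above the WT arrays, as for 9.11% of all probes. Its brightest genes were *Eno2*, the neuron-specific enolase, at 0.16 (SE 0.0848), and *Thy1*, a surface protein of projection neurons, at 0.56 (SE 0.292). *Eno2* varied little, with 13.91 to 14.05 in WT and 14.03 to 14.20 in *Cmah*-null mice. *Vim* and *Gfap* were, like *Eno2*, markers chosen for RT-qPCR. *Vim*, the filament protein vimentin, differed by 0.12 (SE 0.211). *Gfap*, the filament protein of astrocytes and some Schwann cells, was detected on 4 of 6 arrays and differed by -0.18 (SE 0.266). Adjusted p in limma was 0.657 for *Eno2*, 0.895 for *Vim* and 0.868 for *Gfap*.

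The spiral ganglion list, of factors, receptors and calcium-binding proteins of these neurons, had 4 of 18 genes called, 3 up and 1 down in *Cmah*-null mice, beside 3.07% of all genes. Of its 14 detected genes 6 had a higher and 8 a lower mean in *Cmah*-null mice, with a median of -0.09 log2. Among the 18 measured, 4 lay wholly above and 4 wholly below WT, beside 9.11% and 7.33% of all probes. *Prox1*, a homeobox factor of the inner ear, read 8.29, 8.36 and 8.61 in WT and 9.02, 8.90 and 9.54 in *Cmah*-null replicates, a difference of 0.73 log2 (SE 0.193). *Lypd1*, a modulator of nicotinic receptors and marker of a type I neuron class, read 9.56, 10.08 and 9.96 in WT and 10.53, 10.42 and 11.12 in *Cmah*-null replicates, a difference of 0.82 (SE 0.231). *Calb2*, the calcium buffer calretinin and marker of another type I class, differed by 0.63 (SE 0.206). All *Cmah*-null arrays were above all WT arrays for these 3 genes, as they were for *Th*. *Th* differed by 0.52 (SE 0.0863, adjusted p = 0.379 in limma) and, being under 1.5-fold, was not called. *Calca*, which encodes the peptide CGRP of sensory and efferent neurons, lay the other way, with 12.98, 12.16 and 11.78 in WT and 11.05, 11.07 and 10.13 in *Cmah*-null replicates, a difference of -1.56 (SE 0.393). It was -1.92 within the arrays with fewer beads and -1.84 within those with more. Adjusted p of the 4 called genes in limma was 0.445 to 0.531. Without *Cmah*-null replicate 3 the differences were 0.54 for *Prox1*, 0.61 for *Lypd1*, 0.61 for *Calb2*, and -1.25 for *Calca*, so that *Prox1* was under 1.5-fold. Without WT replicate 1, *Calb2* was under 1.5-fold, with a difference of 0.42. *Pvalb*, the calcium buffer parvalbumin and the brightest of the list, differed by -0.24 (SE 0.289).

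**Figure D4:**
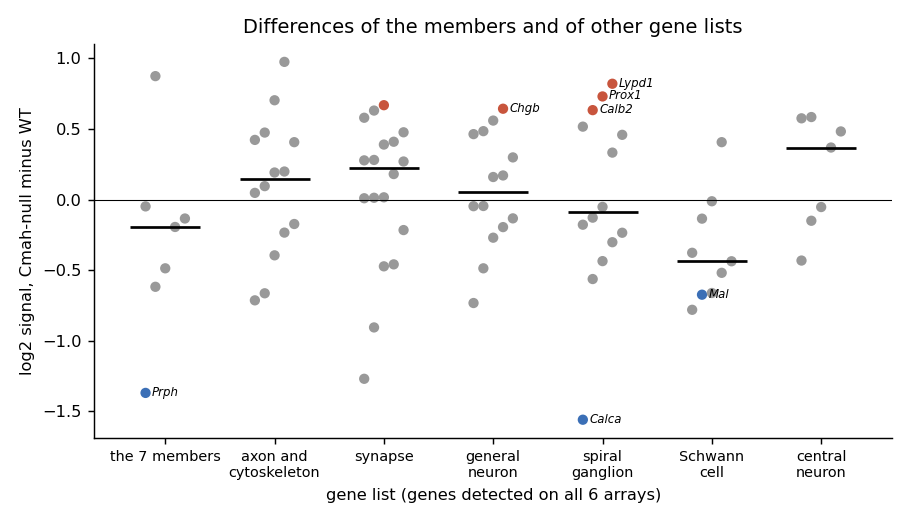
Difference in log2 signal (*Cmah*-null minus WT) of the genes detected on all 6 arrays, for the 7 members, the 4 neuron lists and the lists of Schwann cells and central neurons. Each point is a gene, lines are medians, and coloured points were called at 1.5-fold with an unadjusted p under 0.05 (red higher, blue lower). The members reach down to *Prph* at -1.37, and the medians lie above 0 for the axon, synapse, general neuron and central neuron lists and below 0 for the members, the spiral ganglion list and the Schwann cell list.

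The neuron genes could come from more than the spiral ganglion, and markers of other cells were read beside them. Of 12 markers of central neurons, 7 were detected on all arrays, among them *Pcp2* of Purkinje cells, *Cbln1* of cerebellar granule cells, and *Gad1* and *Slc32a1* of inhibitory neurons. *Neurod6*, *Gad2*, *Cbln3* and *Tbr1* were among those not detected. The summed signal of the central neuron markers was 14.92 to 15.20 log2 in WT and 15.22 to 15.51 in *Cmah*-null mice. Every *Cmah*-null array was thus above every WT array, although the ranges nearly touched. Of the 7 detected, 4 had a higher and 3 a lower mean in *Cmah*-null mice, with a median of 0.37 log2. The brightest, *Cbln1*, differed by -0.15, and *Gad1*, at 0.58, lay wholly above WT, as did 9.11% of all probes. Of 12 hair cell markers, which should mark cochlear tissue, 6 were detected on all arrays and *Pou4f3*, *Slc26a5* and *Atoh1* on none, with a summed signal of 12.73 to 13.09 in WT and 13.01 to 13.14 in *Cmah*-null mice. The part of these cells in the neuron gene values was not tested.

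Schwann cells, which wrap the axons of the ganglion, moved with some of the members. All 9 measured Schwann cell markers were detected, 8 with a lower mean in *Cmah*-null mice and a median of -0.44. Of these markers 1 was called (*Mal*, -0.67), beside 1.46% of all genes called lower. The summed signal of the Schwann cell markers was 16.60 in WT replicate 1, the array highest for *Nefm*, *Prph* and *Uchl1*. It was 15.34 and 15.62 in the other WT arrays and 15.44 to 15.56 in *Cmah*-null mice. Markers of tissue around the cochlea were read as well. Of 10 skeletal muscle markers 0 were called by limma and 0 had groups without overlap, with a smallest adjusted p of 0.63. Their median was -0.54, with a summed signal of 17.09 to 18.10 in WT and 17.15 to 17.47 in *Cmah*-null mice. Of 8 markers of brown fat and of fat cells in general, 4 were called lower, beside 1.46% of all genes. The median of these fat markers was -1.20, with a summed signal of 16.02 to 16.46 in WT and 14.5 to 16.08 in *Cmah*-null mice. Of the 7 detected, 6 had a lower mean, *Cfd* was higher by 0.26 log2, and *Retn* was not detected. Of 7 choroid plexus and meningeal markers 5 were called higher, beside 1.61% of all genes (median 1.11, summed signal 12.64 to 15.49 in WT and 15.46 to 15.83 in *Cmah*-null). Their part in the values of *Prph*, *Nefm* and the other members was not tested.

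The summed pituitary markers were 10.89 and 10.91 log2 in WT replicates 1 and 2 and 13.86 to 14.80 on the other arrays, with *Lhb*, *Fshb* and *Ghrhr* among those not detected. Bone markers summed to 13.31 to 15.89 in WT and 14.17 to 14.44 in *Cmah*-null mice with *Sost* not detected, oligodendrocyte markers to 14.19 to 14.70 and 14.46 to 14.55 with *Olig2* and *Ermn* not detected, and astrocyte markers to 14.31 to 14.47 and 13.27 to 14.73. Of 8 autonomic neuron markers, which could also hold *Prph*, 3 were detected on all arrays and *Dbh* and *Hand2* on none. Only *Npy* was called, higher by 0.85 log2, beside 1.61% of all genes called higher. The summed signal of the 8 markers was 10.76 to 11.00 in WT and 11.10 to 11.34 in *Cmah*-null mice, while their median difference was -0.01. *Npy* and *Slc6a2* (0.53 log2, not called) lay wholly above WT, as did 9.11% of all probes. *Ddc* lay wholly below WT (-0.47), as did 7.33% of all probes. The part of autonomic neurons in the *Prph* value was not tested. Beside *Gata3*, 7 of 8 T cell markers were measured and 3 detected on all arrays, each with a higher mean in *Cmah*-null mice, with a summed signal of 10.34 to 10.60 in WT and 10.68 to 10.84 in *Cmah*-null mice and *Cd4* not detected. The 10 other otic genes that accompany *Gata3* in the ear had 4 detected on all arrays, 2 higher and 2 lower, 0 called by limma and a median of 0.09, or -0.04 over all 10. The part of T cells in the *Gata3* value was not tested.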

How the data were processed

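Transcripts of 3 WT and 3 *Cmah*-null cochlear samples were measured, 1 array each. The authors deposited raw intensity values (mean signal of the beads of a probe, linear scale), with a detection p value per probe exported by the scanner's software, the bead standard error and the number of beads. The deposited log2 values were quantile-normalized by the authors without background correction, which equalled a recomputation to within 5e-07. File columns call the second group "old" where the sample labels say *Cmah*-null, and the replicate numbers were matched. Another 12 columns repeat values per sample, and further columns hold the authors' own fold changes and p values. Neither were used.

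The log2 values were compared with limma 3.58.1 in R 4.3.3 (two-sided, genotype as the only term), and p values were adjusted by Benjamini-Hochberg over the 25697 probes. A gene was represented by its brightest probe. Alternatives were median scaling, neqc (offset 16), fitting probes detected on 3 or more arrays, a block for replicate number, a block for the bead set and values within each set, *Cmah*-null replicates 1 and 2 averaged, a test per probe without shared variance, a robust prior with a trend, each array left out, the mean of all probes of a gene and, chosen after seeing the data, medians over detected genes only. With 3 arrays per group an exact permutation test cannot give a p below 0.1. The fit was tested on simulated data.

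The genes and lists were chosen with earlier results of these data known. Named genes were the members, called genes detected on all arrays of a group (at most 6 a list), the 2 brightest of each neuron list, *Eno2*, *Gfap* and *Vim*, and the 5 genes most like the neurofilaments, some of which are not reported here. Plots used matplotlib 3.10.9 (Python 3.11.15).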

Additional observations from a re-analysis of the deposited data

How the results depend on the processing

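*Prph* was lower and *Gata3* higher in *Cmah*-null mice under all 16 alternatives, from -2.08 to -0.98 and from 0.51 to 1.26 log2. Some of these could not move the difference. The detection filter, the replicate block, the test without shared variance and the robust prior left it at -1.37 and 0.875. The count of members called was 1, and 2 (*Prph* and *Gata3*) with median scaling, the replicate block and the bead block. Leaving out 1 array gave 1 to 2, the 2 without WT replicate 3. No member passed an adjusted p of 0.05 in limma under any alternative with a test. The count of other neuron genes called, 6, was 21 with median scaling and 11 with the bead block (5 higher and 6 lower), and 4 to 14 leaving out 1 array. It was 14 without WT replicate 1 and 10 without *Cmah*-null replicate 3. With median scaling, the median difference (*Cmah*-null minus WT) of probes detected on all 6 arrays was 0.30 log2, beside 0.03 with the deposited values. Shares of all probes or genes called under the alternatives are not given here. The causes were not tested.

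The median of the intermediate filament genes, -0.62, was -2.08 within the arrays with fewer beads and -0.0641 within those with more, where it is the background reading of *Nefl*, and -1.28 to -0.12 leaving out 1 array (-1.28 without *Cmah*-null replicate 3). Over the detected *Nefm* and *Prph* alone it was -0.996. The median of the 9 genes ranged from -0.28 to -0.004 leaving out 1 array and was -0.37 with the bead block. Signs turned for *Syt1* (0.28) and *Stmn2* (0.38) with median scaling, for *Tubb3* (0.0107), *Stmn2* (0.113) and *Uchl1* (0.027) without WT replicate 1, for *Syt1* (0.0701) and *Stmn2* (0.199) without *Cmah*-null replicate 3, and for *Nefm* (1.20), *Tubb3* (0.0311) and *Uchl1* (0.56) within the arrays with more beads. Leaving out 1 array, *Tubb3* ranged from -0.107 to 0.0107, *Syt1* from -0.37 to 0.0701, *Stmn2* from -0.322 to 0.199 and *Uchl1* from -0.856 to 0.027.

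The replicate numbers did not pair the samples, since the correlations of deviations for numbers 1, 2 and 3 were 0.02, -0.17 and 0.01. Signals near background limit *Nefl*, *Snap25* and *Tubb3*.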
